A study of Ophioderma brevispina with 7 samples.

Results

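Of the 1012953 Corset clusters counted in regenerating arms of the brittle star Ophioderma brevispina, 90 abundant clusters had lower levels in each of the DAPT-treated animals than in all control animals, with a mean of at most 0.5 times the control mean. A Corset cluster is a group of de novo assembled contigs that share reads, and it stands in for a gene. Levels are counts divided by the library's total count and scaled to CPM, the usual unit for depth-corrected counts. The 90 clusters were selected on these levels: a mean count of at least 1000 over the 6 libraries, a place outside the 200 clusters with the highest mean CPM, a highest DAPT level below the lowest DMSO level, and a mean DAPT level of at most 0.5 times the mean DMSO level. The count conditions alone were met by 5208 clusters, called eligible here. The difference between DAPT and DMSO in these 90 clusters was therefore set by their choice, and it is described below without a test.

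The DAPT group comprised 3 adult animals kept in 3 μM DAPT dissolved in DMSO, and the control group 3 adult animals kept in the same amount of DMSO, the vehicle. In both groups the exposure began 24 h before the arms were autotomized at segment 15 from the disk and lasted until day 14 post-autotomy. Each library was made from 3 pooled arms of 1 animal, taking the regrown part plus the last stump segment, and n therefore counts animals. The tissue was whole, hence fewer cells of a kind and less RNA per cell cannot be told apart.

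DAPT inhibits gamma-secretase, the membrane protease complex that cuts the Notch receptor once a ligand of the Delta or Serrate family on a neighbouring cell has bound it. The freed intracellular domain then enters the nucleus and, with the DNA-binding protein RBPJ, turns on target genes such as those of the Hes family. Gamma-secretase also cuts other membrane proteins, and an inhibitor in the water reaches every tissue of the arm. Brittle stars shed and regrow their arms, including the nerve cord, water-vascular canal, skeleton and muscle of each segment. The files do not pair the cluster numbers with transcripts, proteins or sequences, so that no gene name or sequence is given for any of the 90 clusters, and whether Notch pathway genes are among them was not analysed here. For the same reason neither a marker of tissue type nor the length of a cluster was at hand. CPM values are therefore compared mainly between animals, and rankings of clusters or shares of a sum by CPM are not corrected for length.

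Total counts were 63069231, 47579683 and 47932842 in the DAPT libraries, against 40640099, 35731131 and 53975986 in the DMSO libraries. With DAPT the mean total was 1.22-fold higher, which did not exceed the scatter of the animals (p = 0.3 by a two-sided exact permutation test, whose smallest p with 3 against 3 is 0.1). At these depths 3 counts, the limit that a count of 0 allows, correspond to 0.0476 to 0.0840 CPM, and this covers counting error only. No library stood apart from the rest as a duplicate or by its total.

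Together the 90 clusters made up 0.277% of all counts with DAPT and 0.889% with DMSO. Their summed level was 2538, 2570 and 3211 CPM in the DAPT animals, and 8622, 10169 and 7865 CPM in the DMSO animals. The means were 2773 ± 380 CPM with DAPT and 8885 ± 1174 CPM with DMSO (SD, n = 3 each), 3.20-fold lower with DAPT. The lowest DMSO sum was thus well above the highest DAPT sum, as the choice of the clusters requires. Without the 3 clusters of highest mean level the sum was 2479 ± 301 CPM with DAPT and 7622 ± 899 CPM with DMSO (SD, n = 3 each), 3.08-fold lower. The conditions require a mean of at most 0.5 times for any part of the 90, so this is a description only.

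Non-overlap in this direction was not rare among abundant clusters. Of the 5208 eligible clusters, 378 (7.26%) were lower with DAPT without overlap between the groups, and 583 (11.2%) were higher without overlap. With the condition on the means added, the 90 clusters were 1.73% of the eligible ones, and 99 clusters met the mirrored conditions in the other direction, with a mean at least 2 times as high with DAPT. A further 108 eligible clusters had a mean DAPT level of at most 0.5 times the DMSO mean but overlapped between the groups, and 208 had a mean at least 2 times as high and overlapped. Under the full conditions lower and higher clusters were thus similar in number, while under either condition alone the higher ones were more numerous. The eligible clusters as a whole were centred near equality, with a median log2 ratio of 0.05.

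Most of the 90 clusters lay not far below the ratio of 0.5 that selected them. The ratio of the mean DAPT to the mean DMSO level had a median of 0.388, and the median log2 ratio was -1.36. In 38 clusters the ratio lay between 0.4 and 0.5, in 32 between 0.25 and 0.4, in 8 between 0.1 and 0.25, in 5 between 0.01 and 0.1, and in 7 it was at most 0.01. The lowest DMSO level exceeded the highest DAPT level by a median of 1.42 times. This gap was under 1.1 times in 10 clusters and at least 2 times in 15. The plot of group means shows the bulk of the clusters as a band along the selection line and a small number far below it.

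**Figure D1:**
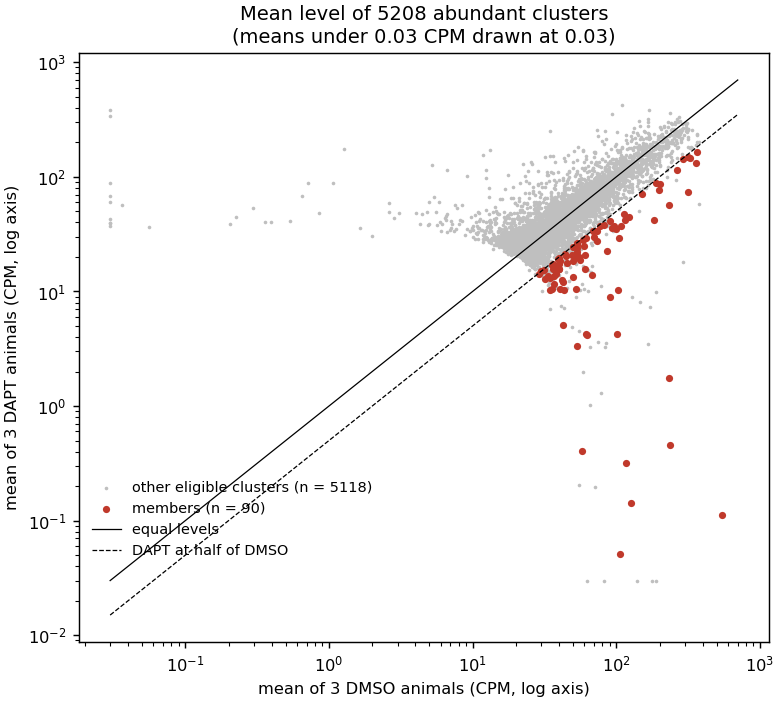
Mean level in the 3 DAPT animals (vertical, CPM, log axis) against the mean level in the 3 DMSO animals (horizontal, CPM, log axis) for the 5208 eligible clusters. Red points are the 90 selected clusters (members), grey points all others; the solid line marks equal levels and the dashed line a DAPT mean of 0.5 times the DMSO mean, below which grey points are clusters whose groups overlapped. Most red points hug the dashed line, and 7 lie at a ratio of at most 0.01.

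At the edge of the selection the values on both sides of the ratio of 0.5 were alike. Just inside, Cluster-278021.0 had 19.2, 12.001 and 13.7 CPM in the DAPT animals and 29.9, 26.6 and 33.4 CPM in the DMSO animals, a ratio of 0.4998. Just outside, Cluster-210554.5 had 15.4, 20.6 and 10.1 CPM in the DAPT animals and 27.8, 32.8 and 31.6 CPM in the DMSO animals, a ratio of 0.5001. The next inside were Cluster-178672.149277 (ratio 0.499) and Cluster-178672.156141 (ratio 0.498), and the next outside Cluster-178672.280689 (ratio 0.5002) and Cluster-346472.0 (ratio 0.501). At the other edge, Cluster-346403.0 met every condition but the minimum count, with a mean of 999.67 counts. Membership near these edges hence turned on differences far smaller than the spread between animals.

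The animals of a group were less alike in the 90 clusters than in abundant clusters generally. The highest level was at most 2 times the lowest within both groups in 30 of the 90 clusters (33.3%), against 3242 of the 5208 eligible ones (62.3%). These spreads come from the same levels that selected the 90, so how far the selection itself set this difference was not tested. The highest-to-lowest ratio among the DAPT animals exceeded 10 in 17 of the 90, and among the DMSO animals in 7. The 30 even clusters had ratios between 0.236 and 0.4998 with a median of 0.443, and their sum was 1325 ± 117 CPM with DAPT and 3228 ± 305 CPM with DMSO (SD, n = 3 each), 2.44-fold lower. The 7 clusters whose DMSO animals differed more than 10-fold were the same 7 that had a ratio of at most 0.01. Above that ratio a deep difference could come with a smaller spread. Cluster-348108.1, 15.9-fold lower, had a highest-to-lowest ratio of 3.26 with DAPT and 2.21 with DMSO.

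**Figure D2:**
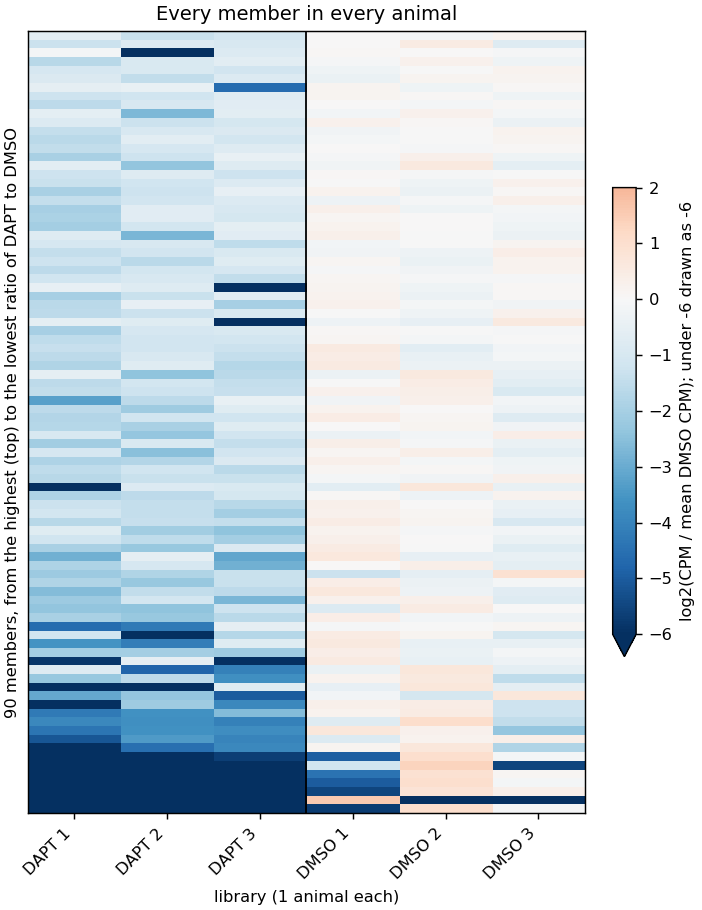
Level of each of the 90 clusters (rows, sorted by the ratio of DAPT to DMSO, highest on top) in each of the 6 animals (columns, the 3 DAPT animals left of the line, the 3 DMSO animals right of it), as log2 of CPM over the cluster's mean DMSO CPM; blue is below that mean, red above, and values under -6 are drawn as -6. The upper rows are evenly pale blue across the DAPT animals except for single dark cells, and the lowest rows are dark in the 3 DAPT animals and in 1 or 2 of the DMSO animals.

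No single animal carried the difference in all of the clusters. DAPT 1 was the lowest DAPT animal in 44 of the 90 clusters, against 34.6% of the eligible clusters. DMSO 1 was the highest DMSO animal in 40 of the 90, DMSO 2 in 28 and DMSO 3 in 22, while over the eligible clusters DMSO 1 was highest in 36.3%. DAPT 3 was the highest DAPT animal in 39 of the 90 and in 38.2% of the eligible clusters, and DMSO 3 was the lowest DMSO animal in 45 of the 90 and in 40.1% of the eligible clusters. DAPT 3 and DMSO 3 were accordingly the animals that most often lay closest to the other group.

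Among the 10 clusters with the highest mean level, 9 were counted at high levels in all 6 animals. Cluster-142359.4 had 76.1, 75.8 and 70.3 CPM in the DAPT animals and 417, 237 and 287 CPM in the DMSO animals. Its mean was 74.1 ± 3.25 CPM with DAPT and 313 ± 93.2 CPM with DMSO (SD, n = 3 each), 4.23-fold lower, and its DAPT animals were nearly identical. Cluster-268421.1 had 114, 135 and 95.5 CPM with DAPT and 291, 249 and 253 CPM with DMSO, 2.30-fold lower. In both clusters the distance between the groups was larger than the spread within either.

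Cluster-202936.1 had 98.8, 119 and 175 CPM in the DAPT animals and 373, 285 and 413 CPM in the DMSO animals, 2.73-fold lower. Cluster-262732.1 had 139, 105 and 197 CPM with DAPT and 356, 244 and 379 CPM with DMSO, 2.22-fold lower. Cluster-178672.54314 had 165, 121 and 142 CPM with DAPT and 347, 306 and 227 CPM with DMSO, 2.06-fold lower. In these 3 clusters the closest animals of opposite groups were 1.24 to 1.63 times apart. Cluster-178672.220096, with 50.9, 81.2 and 130.2 CPM with DAPT and 236, 161 and 212 CPM with DMSO, and Cluster-178672.221897, with 82.2, 133 and 229 CPM with DAPT and 371, 252 and 329 CPM with DMSO, spread more widely among the DAPT animals, and in both DAPT 3 came closest to the DMSO animals.

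In the others 1 animal decided how large the difference was. Cluster-54979.4 had 212, 54.6 and 224 CPM with DAPT and 445, 353 and 288 CPM with DMSO, so that DAPT 2 lay far below the other DAPT animals. Cluster-69685.3 had 19.1, 13.3 and 139.6 CPM with DAPT and 354, 172 and 171 CPM with DMSO, and here DAPT 3 came close to the DMSO animals. Its log2 fold change from edgeR was -2.01 with all animals and -3.85 without DAPT 3. Cluster-178672.410032, the most abundant of all 90 by mean level, was almost absent with DAPT and is described with the clusters of its kind.

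**Figure D3:**
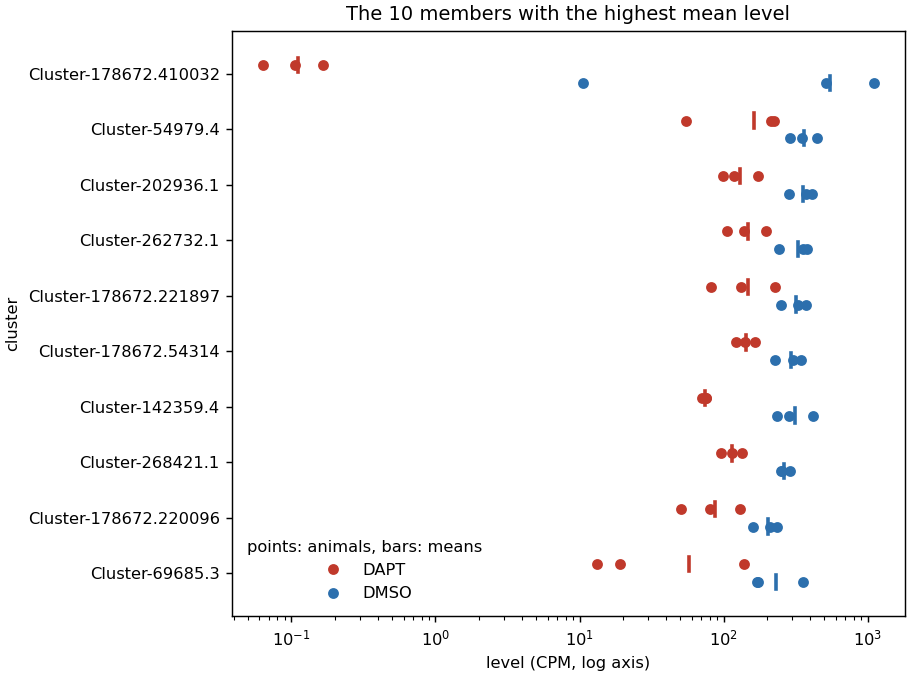
Level (CPM, log axis) of the 10 clusters with the highest mean level, 1 row per cluster; points are animals and short bars group means, with the 3 DAPT animals (red) above the 3 DMSO animals (blue). In 9 rows all points lie between 13.3 and 445 CPM, and in Cluster-178672.410032 the DAPT animals lie at 0.0634 to 0.167 CPM while the DMSO animals span 10.6 to 1109 CPM.

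The 7 clusters with a ratio of at most 0.01 had very unequal levels with DMSO. With DAPT they were close to nothing, except for 4.63 CPM of Cluster-178672.410023 in DAPT 3. Cluster-178672.410032 had 0.0634, 0.105 and 0.167 CPM in the DAPT animals (17 counts in all) and 10.6, 1109 and 514 CPM in the DMSO animals (67790 counts in all). Its gap between the closest animals of opposite groups, 63.5 times and the widest of the 90 clusters, thus stood beside a 105-fold range among the DMSO animals. Cluster-178672.410022 had 0.317, 0.0631 and 0.981 CPM with DAPT and 7.36, 479 and 218 CPM with DMSO. Cluster-178672.410023 had 0.555, 0.0420 and 4.63 CPM with DAPT and 7.55, 479 and 217 CPM with DMSO. These 3 clusters lie within 10 numbers of one another in the same super-cluster and had the same order of the DMSO animals.

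A like profile appeared in clusters far from these numbers. Cluster-178672.295343 had 0.365, 0.0420 and 0.0209 CPM with DAPT and 2.83, 222 and 155 CPM with DMSO. Cluster-363348.0, alone in its super-cluster, had 0.809, 0.0841 and 0.0626 CPM with DAPT and 5.36, 218 and 128 CPM with DMSO. In all, 5 of the 90 clusters were at least 10 times as high in DMSO 2 and in DMSO 3 as in DMSO 1. Every DAPT animal lay below DMSO 1 in them, as the selection requires. The share of eligible clusters with such DMSO levels was not computed, so nothing is read from this count. Cluster-178672.410020, left out of the 90 only because it is among the 200 most abundant, had the profile too, with 1.74, 0.231 and 0.292 CPM with DAPT and 29.4, 2184 and 761 CPM with DMSO.

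The remaining 2 of the 7 rested on other animals. Cluster-178672.228200 had 0.111, 0.0420 and 0 CPM with DAPT and 320.3, 0.224 and 0.185 CPM with DMSO, so that DMSO 1 alone held nearly all of its counts. Its log2 fold change from edgeR was -10.90 with all animals and -1.84 without DMSO 1. Cluster-178672.54012 had 0.428, 0.273 and 0.522 CPM with DAPT and 25.2, 147 and 1.26 CPM with DMSO, and its log2 fold change was -7.18 with all animals and -5.01 without DMSO 2. In these 7 clusters DMSO animals differed from one another by 40.7 to 1729 times, and whether such on-off levels belong to the treatment or to the individual cannot be told apart with 3 animals a group.

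Between these clusters and the band near 0.5 lay 5 with a ratio of 0.01 to 0.1, all well counted in every DMSO animal. Cluster-348108.1 had 1.55, 5.07 and 3.48 CPM in the DAPT animals and 30.7, 62.2 and 68.0 CPM in the DMSO animals, a 15.9-fold lower mean. Cluster-275016.2 had 4.19, 4.75 and 3.76 CPM with DAPT and 36.1, 126 and 22.3 CPM with DMSO, 14.6-fold lower. Cluster-178672.267869 had 1.40, 4.35 and 6.97 CPM with DAPT and 113, 160.4 and 28.3 CPM with DMSO, 23.7-fold lower. The gap between the closest animals of opposite groups was 6.07, 4.70 and 4.06 times in these 3 clusters. Both the ratio and the gap belong to the levels that selected them. In Cluster-275016.2 and Cluster-178672.267869 the DMSO animals differed from one another by 5.66 and 5.67 times, more than the gap. Cluster-178672.172758 and Cluster-167132.5 were the others, with 14.8-fold and 10.1-fold lower means and gaps of 2.48 and 2.59 times.

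Some clusters with a moderate ratio also held a DAPT animal close to absence. Cluster-178672.380500 had 0, 0 and 31.3 CPM with DAPT and 37.2, 83.8 and 35.5 CPM with DMSO. Cluster-178672.390030 had 0.745, 29.5 and 0.313 CPM with DAPT and 62.9, 31.5 and 35.1 CPM with DMSO. Cluster-178672.156141 had 26.4, 0.147 and 16.4 CPM with DAPT and 30.3, 29.0 and 27.0 CPM with DMSO. In each of these clusters the DAPT animals differed far more from one another than the DMSO animals did. A DAPT animal at 3 counts or fewer occurred in 8 of the 90 clusters, and at 0 counts in 2.

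The number before the point in a cluster's name gives its super-cluster, the set of all clusters connected by shared reads. Summing a super-cluster shows whether the whole set is lower or whether reads are distributed differently among its clusters. Of the 90 clusters, 59 (65.6%) belonged to a single very large super-cluster of 421246 clusters, against 62.7% of the eligible clusters. A further 3 were alone in their super-cluster, against 4.51% of the eligible ones, and 28 belonged to 26 other super-clusters of 2 to 22 clusters. The 90 clusters were thus placed much like abundant clusters in general.

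In most of these 26 super-clusters the whole set was lower with DAPT. The sum was lower without overlap in 22 of the 26, of which 16 also had a mean of at most 0.5 times the DMSO mean. It overlapped in 4 and was higher in 0. Among the 1318 super-clusters that hold an eligible cluster, the sum was lower without overlap in 95 (7.21%) and also at most 0.5 times in 1.37%. It was higher without overlap in 201 of the 1318, more than were lower. Since the selected cluster is part of each of the 26 sums, the other clusters were also summed without it. They were lower without overlap in 10 of the 26, overlapped in 16 and were higher in 0, and their mean ratio was below 1 in 21. For 1706 eligible clusters with others beside them, the same sum of the others was lower without overlap in 125 (7.33%) and higher in 165. Clusters of a super-cluster share reads and animals, so these counts are a description of how far the lower level extended beyond the selected cluster.

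**Figure D4:**
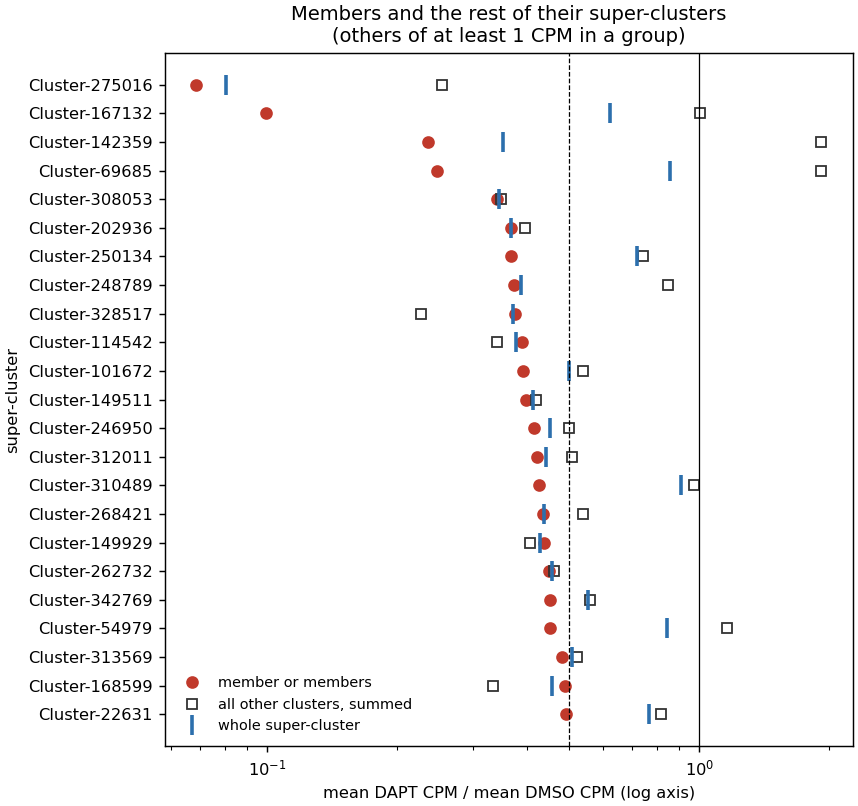
Ratio of the mean DAPT to the mean DMSO level (CPM, log axis) for 23 super-clusters whose other clusters reached a mean of at least 1 CPM in a group. Red points are the selected cluster or clusters, open squares all other clusters of the super-cluster summed, blue bars the whole super-cluster; the dashed line marks 0.5 and the solid line 1. Squares lie left of the solid line in most rows and at or right of it in 4, Cluster-54979, Cluster-69685, Cluster-142359 and Cluster-167132.

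How much the selected cluster contributed differed. It made up at least 90% of the DMSO sum in 9 of the 26 super-clusters, and less than 50% in 10. In Cluster-202936 it was 98.3% of the DMSO sum and in Cluster-268421 97.9%, so that the selected cluster and the set were close to the same thing. Cluster-177296 consisted of 2 selected clusters and a trace of another. There Cluster-177296.2 had 47.9, 42.6 and 35.8 CPM with DAPT and 142, 118 and 86.7 CPM with DMSO, and Cluster-177296.1 had 25.5, 20.3 and 13.5 CPM with DAPT and 66.1, 60.0 and 39.2 CPM with DMSO. The order of the animals within each group was identical in both.

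In several super-clusters the unselected clusters had nearly the same ratio as the selected one. The other clusters of Cluster-308053 summed to 16.8, 9.35 and 14.04 CPM with DAPT and 41.3, 39.7 and 34.2 CPM with DMSO, a ratio of 0.349 beside 0.341 for its selected cluster. The others of Cluster-262732 summed to 191, 191 and 277 CPM with DAPT and 555, 391 and 484 CPM with DMSO, a ratio of 0.461. They include Cluster-262732.3, left out of the 90 only because it is among the 200 most abundant, with 146, 138 and 264 CPM with DAPT and 542, 377 and 438 CPM with DMSO. Cluster-149929 held 2 selected clusters, Cluster-149929.2 with 18.2, 46.0 and 36.9 CPM with DAPT and 90.4, 60.4 and 67.9 CPM with DMSO, and Cluster-149929.4 with 8.04, 18.5 and 12.7 CPM with DAPT and 44.3, 32.7 and 25.8 CPM with DMSO. Its other clusters summed to 13.8 ± 6.25 CPM with DAPT and 34.0 ± 2.42 CPM with DMSO (SD, n = 3 each). In Cluster-262732 the others were carried by this one cluster: Cluster-262732.2 overlapped, and Cluster-262732.0 was higher without overlap, with 38.6, 27.7 and 5.32 CPM with DAPT and 1.77, 4.59 and 3.09 CPM with DMSO. In these 3 super-clusters the sum of the unselected clusters was lower without overlap.

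A large neighbour was lower in Cluster-101672 too. Cluster-101672.3 had 224, 324 and 368 CPM with DAPT and 677, 486 and 538 CPM with DMSO, while the selected Cluster-101672.2 had 66.5, 91.4 and 73.5 CPM with DAPT and 191, 272 and 128 CPM with DMSO. The sum of Cluster-342769 was 728 ± 146 CPM with DAPT and 1316 ± 384 CPM with DMSO (SD, n = 3 each), lower without overlap, but its dominant Cluster-342769.1 overlapped between the groups, with 559.9, 847 and 705 CPM with DAPT and 1581, 1388 and 816 CPM with DMSO. The selected cluster, 4.03% of the DMSO sum, was thus what separated the groups there. In the 26 super-clusters together, 79 unselected clusters had a mean of at least 1 CPM, of which 23 were lower without overlap, 52 overlapped and 4 were higher without overlap. The share over all clusters at that level was not computed, so nothing is read from these counts.

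In 5 super-clusters the other clusters had no lower mean with DAPT, and in 4 of these they reached 1 CPM. In Cluster-69685 the selected cluster was 18.3% of the DAPT sum and 63.4% of the DMSO sum. Its other clusters summed to 312, 281 and 176 CPM with DAPT and 21.8, 168 and 211 CPM with DMSO, a ratio of 1.92, and they were lowest in DMSO 1, the animal with the most of the selected cluster. The whole set summed to 331, 294 and 316 CPM with DAPT and 375, 341 and 382 CPM with DMSO, a ratio of 0.857. The 4.05-fold difference of the selected cluster thus came with a sum that differed far less, though it too was lower without overlap.

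Cluster-167132 also held a cluster that ran against the selected one. The selected Cluster-167132.5 had 5.44, 8.24 and 17.2 CPM with DAPT and 119, 147 and 44.4 CPM with DMSO. Cluster-167132.4 ran the other way, with 52.3, 55.0 and 60.4 CPM with DAPT and 14.03, 0.112 and 51.9 CPM with DMSO, so that DMSO 2 had the most of one and the least of the other. Cluster-167132.6 ran with the selected cluster, with 0.301, 0.778 and 0.417 CPM with DAPT and 30.3, 17.4 and 9.65 CPM with DMSO. Cluster-167132.0, Cluster-167132.7 and Cluster-167132.8 overlapped between the groups. All clusters but the selected one summed to 142 ± 30.4 CPM with DAPT and 142 ± 14.2 CPM with DMSO (SD, n = 3 each), and the whole set had a ratio of 0.622.

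Cluster-54979 and Cluster-142359 differed from this pattern in size. In Cluster-54979 the other clusters summed to 468, 514 and 556 CPM with DAPT and 398, 279 and 647 CPM with DMSO, and the whole set overlapped between the groups with a ratio of 0.841. Of its other clusters, Cluster-54979.6 was lower in every DAPT animal, while Cluster-54979.2, Cluster-54979.5 and Cluster-54979.3 were high with DAPT and in DMSO 3 and low in DMSO 1 and DMSO 2. In Cluster-142359 the other clusters summed to 44.3 ± 23.4 CPM with DAPT and 23.2 ± 8.69 CPM with DMSO (SD, n = 3 each). The selected cluster made up 93.1% of the DMSO sum but only 62.6% of the DAPT sum. The whole set stayed lower without overlap at a ratio of 0.352. Corset was given the treatment groups when it divided super-clusters into clusters, and its part in such opposite pairs was not tested.

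**Figure D5:**
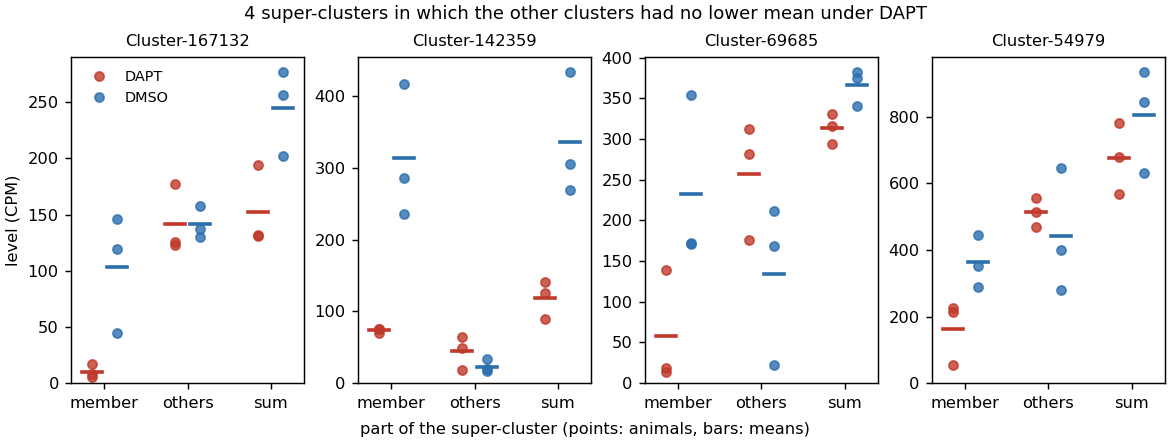
Level (CPM) of the selected cluster (member), of all other clusters (others) and of their sum in the 4 super-clusters whose others reached 1 CPM and had no lower mean with DAPT; points are animals, bars group means, DAPT (red) left of DMSO (blue), and each panel has its own axis from 0. In Cluster-69685 the group means differ 4.05-fold for the selected cluster and much less for the sum, in Cluster-54979 the sums overlap, and in Cluster-142359 the sum follows the selected cluster.

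The very large super-cluster held most of the counts in every library, with 606218, 604488 and 611709 CPM in the DAPT animals and 614242, 617137 and 617639 CPM in the DMSO animals. This sum was lower without overlap at a ratio of 0.986, and without the 59 selected clusters it overlapped at a ratio of 0.992. A sum over so many clusters says little about any of them, so the clusters numbered up to 10 below or above each of the 59 selected ones were examined, though the sources used here do not say that neighbouring numbers mean related sequences. Of 220 such neighbours with at least 5 CPM, 38 (17.3%) were lower without overlap and 13 (5.91%) were higher. Over all 15740 clusters of the super-cluster at that level, 6.63% were lower and 7.28% higher without overlap. The sum over the 21 numbers around a selected cluster was lower without overlap in 34 of the 59 windows, of which 15 were at most 0.5 times, and it overlapped in 25. Among the windows around all 3267 eligible clusters of this super-cluster, the sum was lower without overlap in 7.5% and also at most 0.5 times in 0.551%; the selected cluster is part of its own window. Without any selected cluster the sum was lower in 11 of the 59 windows, overlapped in 45 and was higher in 3. Of the 3267 windows around eligible clusters, without their centre only, 244 (7.47%) were lower and 208 higher. Windows of nearby clusters share clusters, as do the higher ones of Cluster-178672.380492 and Cluster-178672.380500.

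Among the 59 themselves, 17 had another selected cluster within 10 numbers, in 10 pairs, and some of these pairs ran almost in parallel while others did not. Cluster-178672.189871 had 31.1, 37.8 and 36.5 CPM with DAPT and 138, 111 and 50.5 CPM with DMSO, and Cluster-178672.189876 had 34.9, 41.2 and 36.8 CPM with DAPT and 114, 123 and 51.2 CPM with DMSO. Cluster-178672.16402 had 24.0, 56.2 and 43.8 CPM with DAPT and 98.6, 91.0 and 79.5 CPM with DMSO, and Cluster-178672.16403 had 15.1, 29.1 and 31.2 CPM with DAPT and 63.1, 58.9 and 55.7 CPM with DMSO. Other pairs were less alike: Cluster-178672.351090 and Cluster-178672.351094 differed from a constant ratio by up to 3.30 in an animal on the log2(CPM + 0.1) scale, and Cluster-178672.390030 and Cluster-178672.390033 by up to 2.55, against 0.31 and 0.30 for the pairs with values given. Whether such pairs are independent members was not tested, and how many separate genes stand behind the 90 clusters was not determined.

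Other neighbours ran in opposite directions, in examples picked after their values were seen. Beside Cluster-178672.172758, with 3.00, 4.96 and 4.65 CPM with DAPT and 99.4, 74.7 and 12.3 CPM with DMSO, stood Cluster-178672.172760, with 133, 44.8 and 135 CPM with DAPT and 0.148, 0.0840 and 52.5 CPM with DMSO. Beside Cluster-178672.380500, absent from DAPT 1 and DAPT 2, stood Cluster-178672.380501, with 86.5, 29.4 and 24.8 CPM with DAPT and 2.85, 0.868 and 27.7 CPM with DMSO. In each pair the animals low in one were the animals high in the other, while DMSO 3 held both clusters of each pair and DAPT 3 both of the second pair.

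Across all clusters, edgeR's quasi-likelihood test with Benjamini-Hochberg adjustment called 5 of 970597 tested clusters lower with DAPT (0.000515%) and 5 higher, at an adjusted p under 0.05 and a log2 fold change of at least 0.58 in size. These calls depended on the estimate: edgeR's default in the version used called 0 and 0, with 50546 clusters at an unadjusted p under 0.05, and the newer estimate reported here was adopted after that result was known. None of the 90 clusters was among them: 0 passed, with the smallest adjusted p at 0.231 from edgeR (Cluster-142359.4, log2 fold change -2.09, standard error 0.213). At an unadjusted p under 0.05 edgeR counted 76 of the 90, all lower, against 4.5% of all tested clusters and 5.15% of the eligible ones in that direction, and nothing is read from this because the same animals chose the 90. limma-voom also called 0 of the 90, with 77 at an unadjusted p under 0.05, against 2.14% of all tested and 6.59% of the eligible clusters. DESeq2's Wald test called 25 of the 90, against 2479 of the 970597 clusters entered lower (0.255%). It gave no adjusted p for 450079 of those entered, so the share among clusters that could be called was higher. It called 50 of the 90 when only the 5408 clusters with a mean count of at least 1000 were entered, against 84 of these lower (1.55%). In both fits 87 of the 90 had a p-value. The clusters that DESeq2 called among the 90 ranged from on-off ones such as Cluster-178672.410032 to evenly lower ones such as Cluster-268421.1. As the same 6 animals chose the clusters and gave these p-values, the calls are no independent support for a response to DAPT.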

How the data were processed

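RNA-Seq was performed on 3 DAPT and 3 DMSO animals, 1 library each; a pooled library used only for the assembly was not analysed. The authors trimmed the reads, assembled them with Trinity, aligned each library to the contigs by Salmon, and let Corset, which was told the groups, define clusters. The deposited table holds unnormalized counts for each cluster. No column of the table was left unused (0). CPM used column totals. The conditions that define the 90 clusters, their thresholds and the lists were chosen with earlier results of these data known. Clusters named in the text were the 10 with the highest mean CPM, the 8 with the lowest ratio, the 6 with the widest gap, any called by edgeR (0), those sharing a super-cluster other than the largest, and the 3 on either side of the ratio of 0.5; others are named as examples chosen after their values were seen. Counts were tested with edgeR 4.0.16 (TMM, clusters with at least 10 counts in all, no covariate). The default quasi-likelihood estimate of this version was run first and called 0 clusters in either direction; the newer estimate, which calls 5 lower and 5 higher, was then made the main one to follow an earlier analysis of the same counts, so this choice was made with results known. Counts were also tested with limma 3.58.1 (voom) and DESeq2 1.42.0 in R 4.3.3, p-values adjusted over all tested clusters. The standard error is the log2 fold change divided by the root of the quasi-likelihood F. The rest used scipy 1.17.1, pandas 2.3.3, numpy 2.4.6 and matplotlib 3.10.9 under Python 3.11.15. Libraries were compared pairwise by a chi-square over clusters, which ran from 29.5 to 41.3 per cluster, so none was a duplicate. Only the fits were tested on simulated data, whose spread between animals was set smaller than edgeR estimated here. How well the fits recover changes at the spread of these data was therefore not tested. Other scalings, count minimums, ratios, fits and the omission of each library were tried. P-values measure the spread between these animals.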

Additional observations from a re-analysis of the deposited data

How the results depend on the processing

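The number of clusters that met the conditions was 90, 91 with TMM effective library sizes, 89 with DESeq2 size factors (88 and 87 of them among the 90) and 92 with the 200 most abundant kept. It was 209 at a mean count of at least 500, 40 at 2000, 207 at a ratio of at most 0.667, 20 at 0.25, and 30 with counts summed per super-cluster. Without 1 library, where fewer animals had to be free of overlap, it ran from 116 to 163, and 68 to 82 of the 90 remained. The median log2 ratio of the 90 ran from -1.48 to -1.24 without 1 library. TMM moved the median log2 ratio of the eligible clusters by -0.01. Beside the 5 clusters called lower and 5 higher by edgeR, 25 and 18 were called when 3 or more libraries had to hold 10 counts, 1 was called lower and 4 higher with no count filter, and 0 and 0 were called at a mean count of at least 1000, with limma-voom and with edgeR's older estimate, the default that the newer one replaced after its result was seen. DESeq2, which gave no adjusted p for 450079 clusters, called 2479 and 1973, and at a mean count of at least 1000, added after seeing the data like the older estimate, 84 and 81. Without 1 library 0 to 1 were called lower and 0 to 8 higher. Of the 90, 0 were called in every edgeR fit and by limma-voom, 25 by DESeq2 and 50 by DESeq2 at a mean count of at least 1000. With the replicate number as a replicate block edgeR called 0 lower and 0 higher. The numbers are not shown to pair the animals: deviations of same-numbered animals correlated at 0.085, 0.119 and 0.0687 over the eligible clusters, although all 6 libraries correlated best with their own number. The cause of these changes was not tested. A count of 0 and levels near 3 counts limit the ratios of the nearly absent clusters.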
